A study of Drosophila melanogaster with 51 samples.

Results

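Internal alternative promoters are transcription start sites (TSSs) that lie inside a gene, downstream of its most upstream TSS. In Kc167 cells, 1078 of the 16118 regions called open by ATAC-seq (6.69%) lay at such sites. A region belonged to this set when it touched the window of 250 bp to each side of a protein-coding TSS at least 1 kb downstream of the gene's most upstream TSS, and touched no such window of the most upstream TSS of any protein-coding gene. The rule used positions and the annotation only. The set made up 12.6% of the 8556 open regions at any protein-coding TSS and belonged to 727 of the 1752 genes that have an internal TSS, which is 41.5% of them. A TSS is called open below when any region of the list touched its window, as for 1130 of 3001 internal TSSs (37.7%), and closed otherwise, which says only that no region was called there.

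A gene with several promoters can make messenger RNAs with different 5′ ends, and in some genes different protein N termini, under separate control. In Drosophila, promoters of broadly expressed genes often hold the DNA replication-related element (DRE), bound by Dref, or motif 1, bound by M1BP, whereas promoters of developmentally regulated genes often hold an initiator, a downstream promoter element (DPE) or GA repeats bound by GAGA factor, the product of Trl. GAGA factor helps to keep nucleosomes away from promoters and enhancers.

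The data are from Kc167 cells, a Drosophila line of embryonic origin with hemocyte characteristics. In ATAC-seq, accessible DNA is found from where a transposase inserts adapters. Of the 51 libraries in 25 groups, 3 came from basal, untransfected Kc167 cells without copper. Their regions were combined in 1 list that holds positions without heights, and the 48 libraries of stable lines were not analysed here. Among cell type markers, 9 of 12 hemocyte genes had an open TSS (NimC1, He and Sr-CI were closed), against 1 of 6 neuronal genes (elav), 1 of 6 muscle genes (Mlc2) and 0 of 5 fat body genes. Of all 13968 protein-coding genes, 45.1% had an open most upstream TSS, whereas the marker counts took any TSS of the gene. Because the replicates were combined, no value has a replicate error and the depth behind each region is unknown. The intervals given are 95% intervals for counting error only, and genes and regions are not replicates of a condition, so no p-value was computed.

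Sequences just upstream of open internal TSSs show the motifs that the comparisons below turn on. The 100 bases before the TSS are printed 5′ to 3′ in the direction of transcription, with motif matches in capitals, for the internal promoters with the widest open regions that held each motif. They come from the Release 6 genome (dm6), and each lies in an intron of transcripts from the most upstream TSS, with no annotated coding or untranslated base. The DRE, TATCGATA, reads the same on both strands and was in this stretch at 1.50% of 1130 open internal TSSs, 0.641% of 1871 closed ones and 10.9% of 6298 open most upstream TSSs. It is shown for Marf1 (chr2L:22354255-22354354 on the plus strand), for Moe, which encodes the membrane-cytoskeleton linker Moesin (chrX:8881633-8881732 on the minus strand), and for Dab, the adaptor protein Disabled (chr3L:16713560-16713659 on the plus strand).
Marf1: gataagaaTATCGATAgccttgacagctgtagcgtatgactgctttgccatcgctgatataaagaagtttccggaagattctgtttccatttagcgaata
Moe: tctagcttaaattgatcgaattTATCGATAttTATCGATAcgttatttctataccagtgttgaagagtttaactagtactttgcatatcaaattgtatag
Dab: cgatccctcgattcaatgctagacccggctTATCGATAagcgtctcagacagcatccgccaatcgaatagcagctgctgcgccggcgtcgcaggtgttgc
Moe held 2 matches a few bases apart. Its TSS and inner match lay outside the open region, which starts at chrX:8881704. In Marf1 the match started 92 bp before the TSS, in Moe the outer match started 78 bp before it and in Dab 70 bp before it.

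Motif 1, searched as GGTCACAC on both strands, was in the 100 bases before 1.15% of open internal TSSs, 0.107% of closed ones and 5.97% of open most upstream TSSs. Matches of 3 genes are shown: Hers, a repressor of histone genes (chrX:19892042-19892141 on the plus strand), Bicra, a subunit of a Brahma chromatin remodelling complex (chr3R:29088213-29088312 on the plus strand), and lute (chr3R:17385791-17385890 on the plus strand). All 3 matches are in the orientation GTGTGACC.
Hers: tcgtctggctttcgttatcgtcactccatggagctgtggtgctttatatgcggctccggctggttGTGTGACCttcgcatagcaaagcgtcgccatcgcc
Bicra: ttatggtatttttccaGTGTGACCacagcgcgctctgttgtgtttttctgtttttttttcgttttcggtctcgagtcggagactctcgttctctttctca
lute: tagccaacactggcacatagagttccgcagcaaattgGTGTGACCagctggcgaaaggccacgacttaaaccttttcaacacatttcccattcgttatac
The GAGA factor site, searched as GAGAGAG on both strands, was more frequent, at 11.8% of open internal TSSs, 3.42% of closed ones and 3.16% of open most upstream TSSs. It is shown for mub, which encodes a KH-domain RNA-binding protein (chr3L:21879477-21879576 on the plus strand), for the casein kinase gene gish (chr3R:16280789-16280888 on the plus strand) and for the scaffold protein gene dlg1 (chrX:11389969-11390068 on the plus strand). All 3 carry it as CTCTCTC in the direction of transcription, and in mub the repeat is longer than the searched motif.
mub: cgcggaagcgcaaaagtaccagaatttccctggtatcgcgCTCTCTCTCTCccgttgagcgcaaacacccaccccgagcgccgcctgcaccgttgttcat
gish: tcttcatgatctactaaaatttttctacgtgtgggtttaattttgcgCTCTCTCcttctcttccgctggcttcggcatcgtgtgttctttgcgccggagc
dlg1: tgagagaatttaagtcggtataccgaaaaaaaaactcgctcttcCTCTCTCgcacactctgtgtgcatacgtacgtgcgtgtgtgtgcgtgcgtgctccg

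Internal TSSs were open less often than the most upstream TSSs of the same genes, but far more often than other positions within those genes. Of 3001 internal TSSs, 1130 were open, which is 37.7% (35.9 to 39.4%). Of the most upstream TSSs of the same 1752 genes, 1007 were open, which is 57.5% (55.1 to 59.8%), and the difference was -19.8 percentage points (-22.7 to -16.9). Windows of the same size moved 1, 2 or 3 kb upstream or downstream within the gene, away from every TSS window, were open in 10.98% of 12609 cases. The internal TSSs exceeded these by 26.7 points (24.9 to 28.5). The share in the moved windows ranged over 7.22 to 18.2% and was highest 1 kb upstream of the internal TSS. The share of open internal TSSs differed little between the large chromosome arms, at 36.0 to 40.0%, and was 54.1% (38.4 to 69.0%) for the 37 internal TSSs on the small chromosome 4. Most upstream TSSs were also open more often there, at 63.75% of 80, against 42.2 to 50.2% on the large arms.

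Open chromatin had another shape around internal TSSs than around most upstream ones. Over the internal TSS itself, 30.02% of sites lay in an open region, against 51.0% for the most upstream TSSs. At 2 kb upstream the order was turned round, with 10.5% at internal TSSs and 4.85% at most upstream TSSs. Open regions at other promoters were not removed from these shares, and 702 of the 3001 internal TSSs lay 1 to 2 kb from their gene's most upstream TSS. Downstream of the TSS, coverage at internal sites fell off to 12.8% at 250 bp and 8.06% at 500 bp. The most upstream TSSs had a dip to 18.5% at 150 bp and a second rise to 27.2% at 250 bp, and still 22.4% at 500 bp. Internal sites showed no such rise: their coverage was 13.6% at 150 bp. For the 950 regions of the set that touched a single TSS window, the midpoint lay a median of -54 bp from the TSS (-64 to -47), and 68.8% lay upstream of it. For regions at most upstream TSSs only, the median was -10 bp (-12 to -8) and 57.1% lay upstream.

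**Figure D1:**
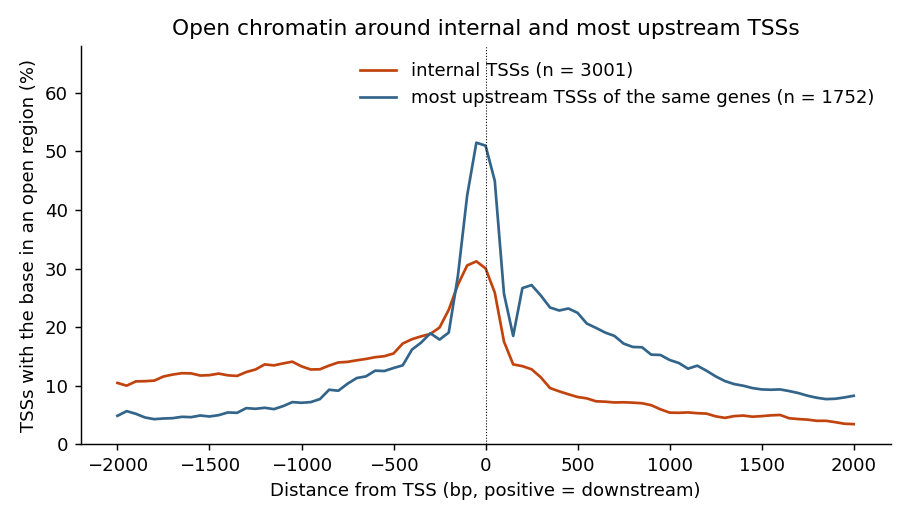
Share of internal TSSs (orange, n = 3001) and of the most upstream TSSs of the same genes (blue, n = 1752) with each base, from 2 kb before to 2 kb after the TSS, inside an open region. At the TSS the values are 30.02% for internal and 51.0% for most upstream sites, and only the most upstream sites rise again downstream, to 27.2% at 250 bp.

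Internal promoters were open somewhat more often in genes whose most upstream promoter was open. Where the most upstream TSS was open, 41.0% of 1765 internal TSSs were open, against 32.9% of 1236 where it was closed, a difference of 8.03 points (4.53 to 11.5). The gap was widest for internal TSSs 1 to 2 kb inside the gene, at 47.4% (42.5 to 52.3%) with the most upstream TSS open and 31.1% (26.2 to 36.6%) with it closed. A single region that reached both windows made both TSSs open. Of 1195 regions at internal TSS windows, 98 also touched the window of a most upstream TSS, and their part in the gap was not tested. At 5 to 10 kb the shares were 38.2% (32.8 to 43.8%) with it open and 35.4% (28.7 to 42.7%) with it closed, and these intervals overlap. The open share did not fall with distance: it was 40.3% at 1 to 2 kb, 34.0% at 2 to 5 kb, 37.1% at 5 to 10 kb, 37.1% at 10 to 20 kb, 38.1% at 20 to 50 kb and 45.7% (38.5 to 53.1%) beyond 50 kb.

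**Figure D2:**
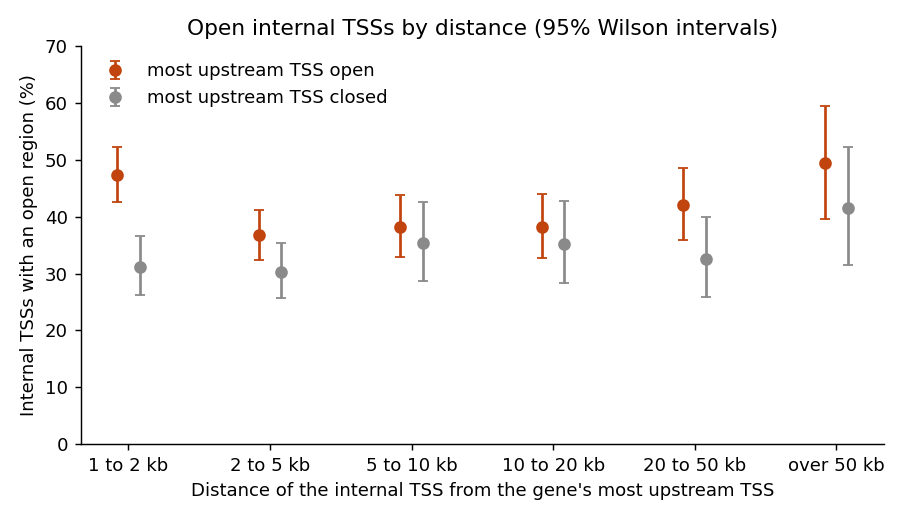
Share of internal TSSs that were open, by distance from the gene's most upstream TSS, for genes whose most upstream TSS was open (orange) or closed (grey), with 95% Wilson intervals. The points stay between 30.3% and 49.5% in every distance class, and the intervals of the 2 states are apart at 1 to 2 kb only.

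By gene, 492 of the 1752 genes (28.1%) had both the most upstream TSS and an internal TSS open, 299 (17.1%) had an internal TSS open with the most upstream one closed, 515 (29.4%) had only the most upstream one open and 446 (25.5%) had neither. Among the 727 genes with a region of the set, the most upstream TSS was closed in 269, which is 37.0% (33.6 to 40.6%). In 15 of these a TSS under 1 kb from it was open, so 254 genes (34.9%) had no open TSS in their first 1 kb. Reads with several alignments had been dropped from the data, and in 3 of the 269 closed windows at least 50% of the sequence was masked as repeat. Of 673 genes with several internal TSSs, 127 (18.9%) had all of them open, 307 (45.6%) some and 239 (35.5%) none.

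The annotation of an internal TSS went with its state in 1 respect and not in others. Internal TSSs used by 1 annotated transcript were open in 32.0% of 2087 cases, those of 2 transcripts in 47.6% of 527 and those of 3 or more in 54.5% (49.5 to 59.4%) of 387. A start codon different from that of the most upstream TSS was annotated at 51.2% of open and 54.4% of closed internal TSSs, a difference of -3.12 points whose interval (-6.80 to 0.566) includes 0. By position in transcripts from the most upstream TSS, 565 of 1130 open internal TSSs lay in the first intron, 39.8% in a later intron, 8.58% in an untranslated exon and 1.42% in a coding exon. Among 1871 closed internal TSSs, 944 (50.5%) lay in the first intron, 39.0% in a later intron, 8.93% in an untranslated exon and 1.44% in a coding exon.

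Regions at internal promoters were wide. Their median width was 334 bp (317 to 346) with quartiles of 223 and 525 bp, against 279 bp (272 to 285) for 4185 intronic regions away from any TSS and 204 bp (201 to 206) for 6877 regions at most upstream TSSs only. Of the set, 28.1% (25.5 to 30.9%) were at least 500 bp wide, against 16.0% (14.9 to 17.2%) of the intronic regions and 9.50% (8.83 to 10.2%) of those at most upstream TSSs. Regions under 200 bp made up 19.2% of the set, 28.1% of intronic regions and 47.7% of those at most upstream TSSs. The difference was also present within genes. In the 458 genes of the set with an open most upstream TSS, the widest internal region exceeded the widest one at the most upstream TSS in 299 (65.3%, 60.8 to 69.5%), with medians of 405.5 bp for the internal and 292 bp for the most upstream region and a median difference of 90 bp, whose interval starts at 59 bp. Many of these genes had several internal TSSs and only 1 most upstream TSS, which favours the internal side of this count. Without choosing the widest, the 620 regions at the most upstream TSSs of genes with a region of the set had a median of 240 bp (231 to 252).

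**Figure D3:**
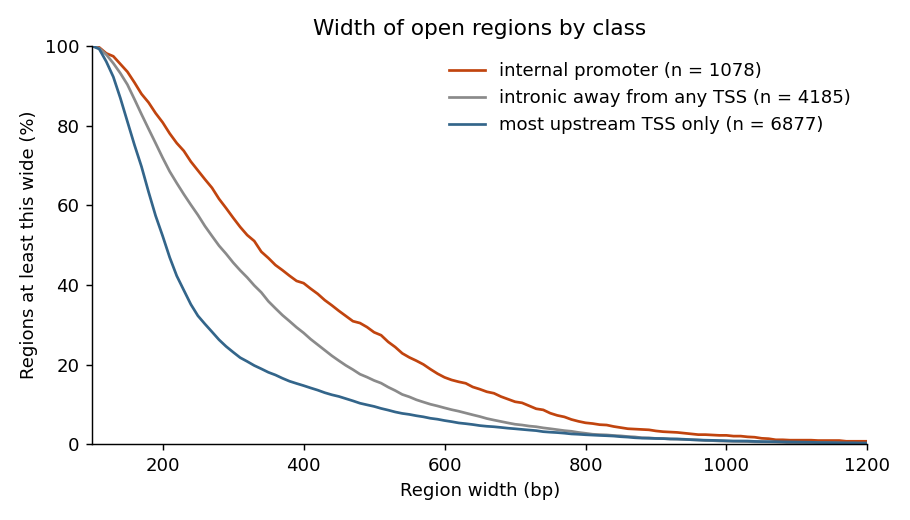
Share of regions at least as wide as the value on the x axis, for internal promoters (orange, n = 1078), intronic regions away from any TSS (grey, n = 4185) and regions at most upstream TSSs only (blue, n = 6877). The curve for internal promoters lies above both others, with 28.1% of regions reaching 500 bp.

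The set differed from regions at most upstream TSSs in GAGA factor sites, DREs and motif 1. Motifs were sought in either orientation within the 200 bp around a region's midpoint. For regions under 200 bp this window reaches past the ends of the region. GAGAGAG was present in 24.3% of internal-promoter regions (21.8 to 27.0%), 14.6% of intronic regions and 6.73% of regions at most upstream TSSs. The ratio was 1.66 (1.46 to 1.89) over intronic regions and 3.61 (3.15 to 4.14) over most upstream TSS regions. Against most upstream TSS regions of the same genes, where 10.5% held the site, it was 2.32 (1.80 to 2.99). TATCGATA was present in 1.39% of the set and in 10.6% of most upstream TSS regions, a ratio of 0.132 (0.0794 to 0.219), and in 5.81% of the most upstream TSS regions of the same genes, a ratio of 0.240 (0.132 to 0.434). GGTCACAC was present in 1.58% of the set and in 10.8% of most upstream TSS regions, a ratio of 0.147 (0.0910 to 0.236), with 10.97% in those of the same genes. Both were still more frequent in the set than in intronic regions, where DREs were at 0.502% and motif 1 at 0.406%.

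GC content moved with these classes, at 47.7 ± 7.17% in the set, 44.9 ± 6.38% in intronic regions and 43.6 ± 7.65% at most upstream TSSs (SD over regions), and its part in the motif shares was not tested. Width moved with them as well. Among regions under 200 bp, GAGAGAG was in 15.5% (11.2 to 21.0%) of the set, 12.4% of intronic regions and 2.41% of most upstream TSS regions. Among regions of at least 500 bp it was in 24.4% (19.9 to 29.6%) of the set, 18.4% of intronic regions and 16.4% (13.7 to 19.4%) of most upstream TSS regions. At both ends of the width range the interval of the set overlaps that of intronic regions. From 200 bp to under 350 bp the shares were 24.8% (20.7 to 29.5%) in the set, 14.0% (12.3 to 15.8%) in intronic regions and 7.90% in most upstream TSS regions, without overlap.

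For most other motifs the internal-promoter regions were close to intronic or to most upstream TSS regions, whereas for the E-box they lay between them. The CA repeat CACACACA was in 14.7% of the set, 16.0% of intronic regions and 7.79% of most upstream TSS regions, but in 14.8% of those of the same genes, so that the ratio within these genes was 0.994 (0.784 to 1.26). The GATA site AGATAAG, bound by Serpent in hemocytes, was in 2.97% of the set, 4.87% of intronic regions and 2.20% of most upstream TSS regions, with a ratio of 1.35 (0.928 to 1.97) over the last. In the most upstream TSS regions of the same genes, 4 of 620 held it (0.645%). The AP-1 site TGAGTCA was in 2.41% of the set, 4.56% of intronic regions, a ratio of 0.528 (0.353 to 0.792), and 1.77% of most upstream TSS regions, a ratio of 1.36 (0.895 to 2.07), with 2.42% in those of the same genes. The E-box CAGCTG was in 14.3% of the set, 11.7% of intronic regions and 16.8% of most upstream TSS regions, with 14.2% in those of the same genes. Its ratio was 1.23 (1.04 to 1.45) over intronic and 0.849 (0.727 to 0.992) over most upstream TSS regions. The homeodomain core TAATTA was in 6.22% of the set, 6.71% of intronic regions and 7.98% of most upstream TSS regions. TATAAA was in 14.6% of the set, 16.7% of intronic regions and 19.0% of most upstream TSS regions. The ETS core CCGGAAG was in less than 1% of regions in all classes.

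**Figure D4:**
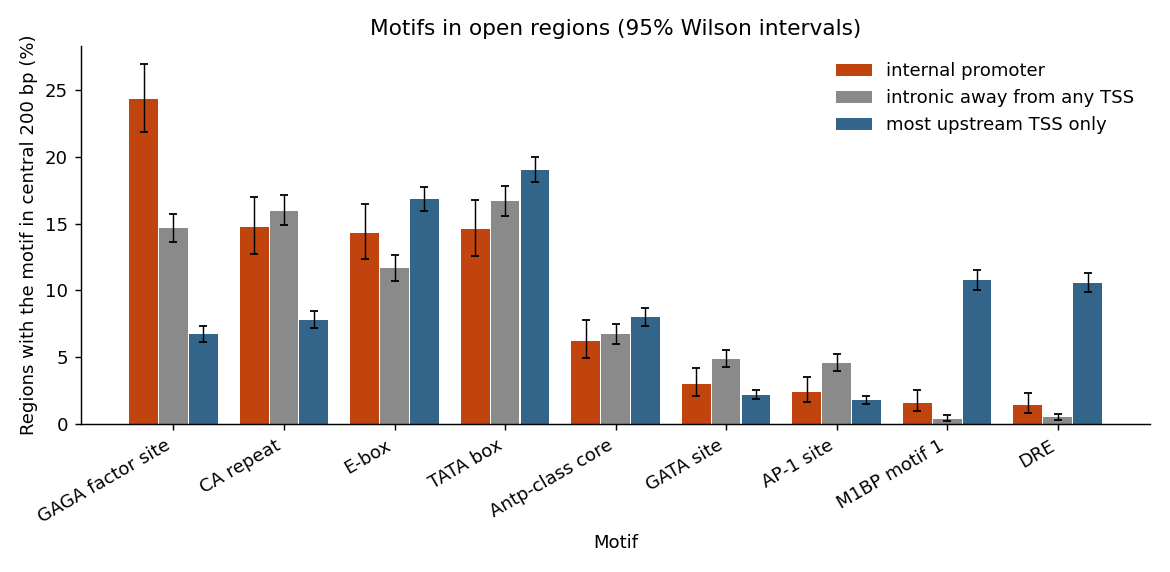
Share of regions with each motif in the 200 bp around the midpoint, for internal promoters (orange), intronic regions away from any TSS (grey) and regions at most upstream TSSs only (blue), with 95% Wilson intervals. The GAGA factor site stands at 24.3% in internal promoters, 14.6% in intronic and 6.73% in most upstream TSS regions, and the DRE at 1.39% in internal promoters, 0.502% in intronic and 10.6% in most upstream TSS regions.

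Counted from the TSS rather than from the region, open internal promoters had more initiators and GAGA factor sites than most upstream ones. Of the 1130 open internal TSSs, 1038 were touched by a region of the set, and the others were open only through regions left out of it. The initiator TCAGT, sought on the sense strand within 7 bases of the TSS, was at 19.9% of open internal TSSs, 15.5% of closed internal TSSs and 8.03% of open most upstream TSSs. The ratio was 1.28 (1.10 to 1.50) over closed internal and 2.48 (2.15 to 2.86) over open most upstream TSSs, and 1.32 (1.03 to 1.69) over the 458 open most upstream TSSs of the genes in the set. The DPE (AGACG or GGACG, also with T in place of the middle A, 24 to 36 bases downstream) was at 8.76% of open and 5.99% of closed internal TSSs, and at 7.86% of the open most upstream TSSs of the same genes. The GAGA factor site in the upstream 100 bases separated open from closed internal TSSs most clearly of the 3, with a ratio of 3.44 (2.58 to 4.59), and exceeded the open most upstream TSSs of the same genes by a ratio of 1.50 (1.05 to 2.13). The ratio of open over closed internal TSSs was higher for motif 1, at 10.8 (2.43 to 47.6), with matches at only 13 open and 2 closed TSSs. For the DRE it was 2.35 (1.12 to 4.89). TATAAA, 20 to 40 bases upstream, was at 2.83% of open and 3.47% of closed internal TSSs, and at 4 of the 458 open most upstream TSSs of the same genes.

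The 458 genes of the set with an open most upstream TSS mostly had a given element on neither side. This was so in 348 genes for the GAGA factor site, 419 for motif 1, 422 for the DRE and 295 for the initiator. Whether the 2 sides were independent was not tested. The initiator was at an open internal TSS only in 94 genes, at the most upstream TSS only in 42 and at both in 27. The GAGA factor site was upstream of an open internal TSS only in 74 genes, of the most upstream TSS only in 27 and of both in 9. Motif 1 was upstream of an internal TSS only in 5 genes, of the most upstream TSS only in 34 and of both in 0. The DRE was internal only in 6, most upstream only in 29 and on both sides in 1. Several internal TSSs per gene give the internal side more chances of a match for every element. Where the most upstream TSS was closed, DREs were upstream of 2.46% (1.34 to 4.46%) of 407 open internal TSSs, against 0.968% (0.470 to 1.98%) of 723 where it was open, and these intervals overlap.

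Most genes of the set had a single region in it: 481 had 1, 168 had 2, 57 had 3 and 21 had 4 or more. The genes with the most were Svil with 7, bun, dnc, Ptpmeg2 and Tlk with 6 each, and cnc, Hers, mtd, PAN3 and Pfrx with 5 each, among 13 genes with at least 5. A count of regions is not a count of promoters, because 170 internal TSS windows held at least 2 regions of the set.

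Svil, which encodes the membrane and actin-binding protein Supervillin, spans 122 kb of arm 3L and has 15 internal TSSs, of which 6 were open. These lay 10337, 40300, 51255, 80248, 89206 and 116883 bp from the most upstream TSS, which was open too, and their widest regions measured 388, 498, 289, 290, 382 and 154 bp. The region of 154 bp met the TSS window with its last base only, and its midpoint lay at -327 bp from the TSS. In bun, a TSC22-family growth regulator on arm 2L, 4 of 6 internal TSSs were open, at 41779, 53114, 63022 and 85355 bp, and the region at 53114 bp was the widest of them at 638 bp. The gene held 40 open regions in all, 6 of them in the set. In dnc, the cAMP phosphodiesterase gene of the X chromosome, 5 of 8 internal TSSs were open. No internal TSS of dnc is annotated nearer than 79628 bp, and the open ones lay between 79628 and 152967 bp. The widest region at each of them measured 323 to 452 bp, and a further region of 262 bp lay at 118841 bp, whereas the region at the most upstream TSS measured 1321 bp.

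In Ptpmeg2, a protein tyrosine phosphatase gene, 6 of the 8 open regions were at internal promoters. Open TSSs lay at 8369, 13220, 18521 and 20117 bp, with widths of 288, 278, 849 and 139 bp. Tlk, a kinase gene linked to chromatin assembly, had 5 of 7 internal TSSs open from 19890 to 60136 bp, the widest region measuring 723 bp. In cnc, which encodes a bZIP factor of the oxidative stress response, 6 of 9 internal TSSs were open and 5 of these lay within a cluster from 35428 to 37582 bp. The remaining open TSS, at 4750 bp, had the widest region at 903 bp.

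**Figure D5:**
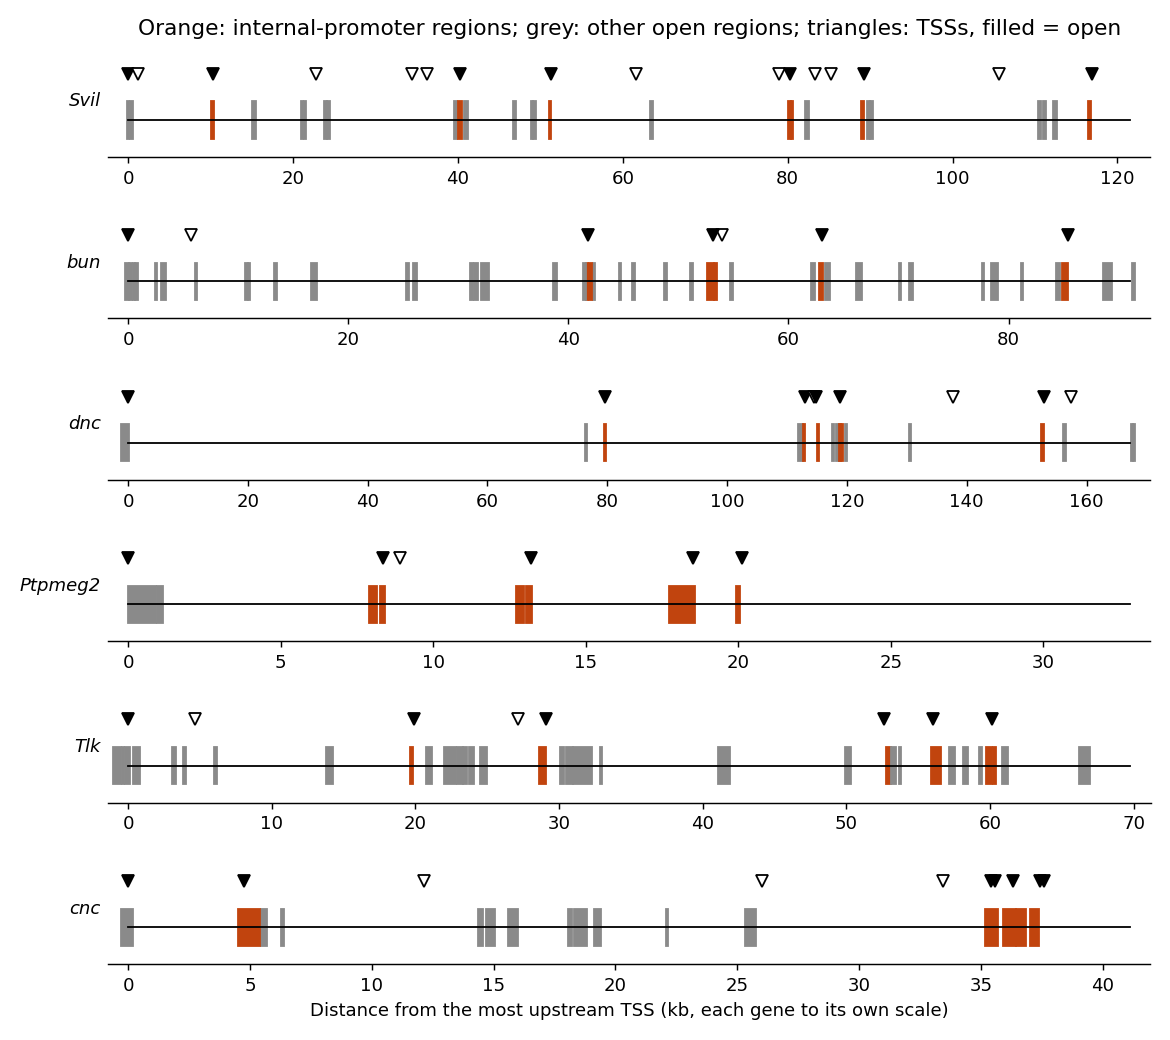
Maps of the 6 genes with the most internal-promoter regions, drawn from the most upstream TSS on the left, each to its own scale in kb, with internal-promoter regions in orange, other open regions in grey and TSSs as triangles, filled when open. In Svil 6 of 15 internal TSSs are filled and in cnc 6 of 9, of which 5 sit close together near the 3′ end.

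Hers had all 4 of its internal TSSs open, with a region of 876 bp at 9603 bp as its widest. The deadenylase subunit gene PAN3 had 4 of 5 open and the phosphofructokinase regulator gene Pfrx 3 of 4. The mtd gene differed from the other 9 in that its most upstream TSS was closed, while 5 of its 9 internal TSSs were open, the widest region measuring 783 bp at 42344 bp.

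The widest region of the set, at ITP, which encodes ion transport peptide, measured 2023 bp and lay 2520 bp inside the gene. Next came RNA-binding protein genes, with 1620 bp at mub, 1616 bp at the splicing factor gene ps and 1420 bp at Rbfox1. The others of the 10 widest were klar (1405 bp), gish (1335 bp), dlg1 (1291 bp), the Fos gene kay (1220 bp), RhoGAP18B (1167 bp) and sick (1166 bp). In all, 24 regions reached 1000 bp. In ITP, mub, Rbfox1, gish and sick the most upstream TSS was closed, and in gish a TSS under 1 kb from it was open. For mub and Rbfox1 the internal promoter was also the only internal TSS annotated.

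Distances from the most upstream TSS had a median of 5944 bp (5264 to 6890) with 249 regions under 2 kb and 85 at 50 kb or more. The farthest was at kirre, an immunoglobulin-family adhesion gene, 359166 bp inside a gene whose most upstream TSS was closed. Next were Ten-a, a teneurin, at 160100 bp, dnc at 152967 bp, sick at 138888 bp and the RNA-binding protein gene bru3 at 136651 bp. CG32816 followed at 135925 bp, the tyrosine phosphatase gene Ptp61F at 125715 and 124658 bp, and CG1677 at 119602 bp. The most upstream TSS was closed in each of these genes except dnc. At the limit of 1 kb, the nearest regions inside were at ERR (1001 bp; 685 and 203 bp wide) and ATPCL (1003 bp; 386 bp), and the nearest outside were at usp (999 bp; 173 and 151 bp) and Not1 (997 bp; 207 and 204 bp).

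Among genes with a closed most upstream TSS, the widest internal regions after ITP, mub, Rbfox1, gish and sick were at the synaptic complexin gene cpx (1065 bp), CG3164 (1044 bp), bru3 (1043 bp), the secretory pathway calcium pump gene SPoCk (1000 bp) and CG3168 (952 bp). Their distances ran from 1484 bp in cpx to 136651 bp in bru3.

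Gene lists were described by how many of their genes with an internal TSS had a region of the set, beside the 41.5% for all such genes. The lists are short, were not matched for the number of internal TSSs per gene, and were not tested. For the hemocyte, Hox and TALE, EGFR and PVR, Notch and Wnt, neuronal, sarcomere and membrane traffic lists, the 95% interval of the share includes 41.5%. Hemocyte factors and effectors had 5 of 8. The GATA factor gene srp had a region of 844 bp at 7988 bp, kn, the crystal cell and lamellocyte regulator Collier, 837 bp at 8105 bp, and ush, the Friend of GATA cofactor of Serpent, 773 bp at 47246 bp, with 3 of 3 internal TSSs open. In these 3 genes the most upstream TSS was closed. The ETS factor gene pnt (445 bp at 31852 bp) and the PDGF/VEGF receptor gene Pvr (270 bp at 9201 bp) had an open most upstream TSS as well. The scavenger receptor gene crq and Lis-1 had none at their internal TSSs.

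Hox and TALE homeodomain genes had 4 of 6. Abd-B had a region of 778 bp at 37994 bp, with 1 of 5 internal TSSs open. The cofactor gene hth had 541 bp at 25292 bp, Scr 529 bp at 1476 bp and Antp 268 bp at 66388 bp. Of these, Scr alone had an open most upstream TSS, whereas abd-A and lab had an open most upstream TSS and a closed internal one. Ecdysone response genes had 8 of 11. The widest were Eip63E (881 bp at 27829 bp), br, the Broad factor (713 bp at 47176 bp, 1 of 7 internal TSSs open), Eip78C (580 bp at 13738 bp), Eip74EF (552 bp at 42699 bp) and Eip75B (521 bp at 93257 bp, 3 of 6 open). In br, EcR and Eip78C the most upstream TSS was closed, and Blimp-1 and Eip93F had no region of the set.

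Nuclear receptor genes had 8 of 10, some of them also ecdysone genes. Beyond those named, ERR, with a role in carbohydrate metabolism, had 685 bp at 1001 bp, ftz-f1 had 505 bp at 35565 bp, Hnf4, a lipid metabolism regulator, had 3 of 3 internal TSSs open with a widest region of 485 bp, and eg and Hr3 had no region of the set. In Hr3, 1 of 2 internal TSSs was open, through a region outside the set. BTB zinc finger genes had 9 of 11, with jim (899 bp at 10359 bp), ttk, the repressor Tramtrack (798 bp at 12535 bp, 3 of 3 open), psq (743 bp at 11054 bp), br and lola (643 bp at 8259 bp, 3 of 3 open) as the widest, and ab and lov without. Chromatin and insulator genes had 6 of 7. The remodeller gene kis had 774 bp at 28861 bp, psq 743 bp, tara 657 bp at 17165 bp, the Polycomb group gene ph-p 303 bp at 1516 bp and HDAC4 190 bp at 12888 bp, and Mi-2 had none. Trl, which encodes GAGA factor, had 3 of 3 internal TSSs open and a closed most upstream TSS.

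EGFR and PVR signalling genes had 6 of 8 (interval of the share 40.9 to 92.9%), with the ligand gene spi (779 bp at 1728 bp, most upstream TSS closed), the repressor gene aop (520 bp at 17227 bp), pnt, the phosphatase gene csw (334 bp at 8055 bp) and Pvr as the widest, and cic and Egfr without. JAK/STAT and JNK genes had 5 of 6 (83.3%, 43.6 to 96.99%). Here kay had 1220 bp at 6897 bp, Stat92E 350 bp at 1204 bp with its most upstream TSS closed, the JNK phosphatase gene puc 291 bp at 1156 bp, Ptp61F 271 bp and Tak1 227 bp at 6680 bp, and the ligand gene upd1 had none. Notch and Wnt genes had 6 of 11 (54.5%, 28.0 to 78.7%), all of them with an open most upstream TSS. The widest were sgg, the GSK3 kinase (581 bp at 8802 bp, 4 of 9 open), mam, the Notch coactivator Mastermind (533 bp at 17996 bp), numb (458 bp at 12361 bp), pan, the TCF factor (415 bp at 21029 bp), and the receptor gene fz2 (345 bp at 64725 bp), and Apc and arm had no region of the set. In arm both internal TSSs were open, through regions that also touched another excluded TSS window.

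Kinase and phosphatase genes had 15 of 23, led by gish, par-1, a polarity kinase (788 bp at 6710 bp), the cGMP-dependent kinase gene for (744 bp at 17033 bp), Tlk and Pdk1 (675 bp at 2362 bp), and Akt and aPKC had none. RNA-binding protein genes had 14 of 22, with mub, ps, Rbfox1, bru3 and Syp (895 bp at 22166 bp, 3 of 4 open) as the widest, and bru1 and elav without. Counted by TSS, however, 21 of the 59 internal TSSs of the RNA-binding list were open, a share below the 37.7% of all internal TSSs. Carbon metabolism genes had 9 of 12, close to their most upstream TSS. Treh, trehalase, had 586 bp at 2822 bp with 4 of 5 internal TSSs open, Pfk, phosphofructokinase, 511 bp at 1130 bp, Men, malic enzyme, 432 bp at 2650 bp, Ald1, aldolase, 345 bp at 2378 bp, and Gpo1 305 bp at 1411 bp. Ldh and Pgk had none.

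Neuronal and synaptic genes had 4 of 14 (28.6%, 11.7 to 54.6%): dlg1 (1291 bp at 20707 bp), cpx (1065 bp at 1484 bp), Vmat (546 bp at 1262 bp) and unc-13 (344 bp at 7510 bp), while brp and cac had none. Sarcomere genes had 2 of 12 (16.7%, 4.70 to 44.8%), Mef2 (699 bp at 29243 bp), which encodes a factor also used outside muscle, and the tropomyosin gene Tm1 (168 bp at 9792 bp), while bt and Mhc had none. Membrane traffic GTPase genes, which are broadly expressed, had 1 of 6 (16.7%, 3.01 to 56.4%), at Rab5 (555 bp at 2492 bp), although 5 of the 6 had an open most upstream TSS. Arf1 and Rab14 had no region of the set. The only internal TSS of Arf1 was nevertheless open, through a region that also touched an excluded TSS window, whereas those of Rab14 were closed.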

How the data were processed

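Open regions were those of the 3 basal Kc167 libraries. The deposited values are chromosome positions of open regions and hold no count, score or signal. Per the study's methods, the authors used Bowtie 1.2.2 for alignment to dm6 minus scaffolds, retained uniquely aligned reads, offset them to the centre of the transposase contact, called regions per replicate with MACS2 2.1.1.20160309 at a q-value of 0.01 and merged the regions that at least 2 of the 3 replicates shared. Dropped multiple alignments leave near-identical copies uncalled. The study gives read totals per library, but the deposited list carries no depth per region.

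TSSs came from the Ensembl release 115 annotation (BDGP6) on 7 chromosome arms, with at least 1 bp of overlap counted. Sequence came from the RefSeq Release 6 genome, which has the dm6 coordinates. Positions are counted from 1. Shares have Wilson, differences of shares Newcombe, ratios Katz (log scale) and medians order-statistic intervals at 95%. Of these, the Newcombe and order-statistic intervals were tested on simulated data. The run used Python 3.11.15, numpy 2.4.6, pandas 2.3.3, scipy 1.17.1 and matplotlib 3.10.9. Of the motifs, 10 were counted in regions and 6 elements at TSSs. Intronic regions lay within a protein-coding transcript, outside exons and TSS windows.

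Members and the 16 gene lists were chosen with earlier results of these data known. Named genes were the 10 with the most regions, those of the 10 widest and the 10 farthest regions, the 10 widest with a closed most upstream TSS, and from each list up to 5 with the widest regions and up to 2, in alphabetical order, with an internal TSS and no region. Other genes named as exceptions were chosen after their values were seen. The 10 list symbols not matched were left out. The result of 1 gene list is not reported here. The alternatives changed the TSS window (100 or 500 bp), the distance (500 bp or 2 kb), the least width (200 bp), the least overlap (50 bp), the use of the midpoint, the motif window and the treatment of regions that also touched a TSS under 1 kb inside the gene, which were then allowed.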

Additional observations from a re-analysis of the deposited data

How the results depend on the processing

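The number of regions in the set, 1078, became 905 with a TSS window of 100 bp on either side, 1301 with 500 bp, 1345 with a distance of 500 bp, 829 with 2 kb, 871 with regions of at least 200 bp, 1035 with an overlap of at least 50 bp, 890 with the midpoint in the window and 1097 with TSSs under 1 kb inside allowed. Of the shares and the median width, 19 values left their counting interval. With a TSS window of 100 bp on either side, 34.3% of internal TSSs were open, 42.1% of genes in the set had a closed most upstream TSS, the median width was 353 bp and motif 1 was in 2.54% of regions. With 500 bp, the 2 shares were 42.1% and 29.7%. With a distance of 500 bp, 40.7% of internal TSSs were open, the median width was 313 bp and 43.3% of open internal TSSs had a different start codon, and with 2 kb the median width was 349 bp, the DRE share 0.844% and the start codon share 59.5%. With regions of at least 200 bp, 32.8% of internal TSSs were open, 50.1% of genes had a closed most upstream TSS and the median width was 400 bp. With the midpoint required in the window, the 2 shares were 32.2% and 43.2%. Sought in the whole region, GAGAGAG was in 33.6% and motif 1 in 2.97%. Ratios to most upstream TSS regions under the same alternatives, chosen after seeing the data, kept their direction: 2.47 to 4.22 for GAGAGAG, 0.0803 to 0.177 for the DRE and 0.106 to 0.253 for motif 1. The median width stayed 110 to 145 bp above that of most upstream TSS regions. No replicate could be left out, and no paired analysis was possible because the 3 replicates were combined in 1 list.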
